A study of Mus musculus with 9 samples.

Results

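The alpha crystallins and small heat shock proteins were measured in the mouse choroid (CH), retinal pigment epithelium (RPE) and photoreceptors (PR). The group consisted of 8 genes, Cryaa, Cryab, Hspb1, Hspb2, Hspb3, Hspb6, Hspb7 and Hspb8, whose symbols were matched to the gene names of the array regardless of case. They were represented by 10 probes, of 39429 probes for 31896 genes on the array. Cryaa and Cryab had 2 probes each and the other genes 1 probe each.

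Each tissue was represented by 3 arrays, 9 in all, and all samples came from female C57BL/6 mice, of the J substrain in the study's methods. The labels give the age as 6 months with a range of 2 weeks. The tissues were untreated, were cut out of frozen sections with a laser dissection microscope, and each sample used a whole eye. The amplified RNA of the sample carried Cy5 and the array also received a common reference, mouse choroid and RPE RNA labelled with Cy3, with no dye swap. Values below are log2 ratios of Cy5 over Cy3, so a value of 0 is the level of the reference, and tissue levels are given as mean ± SD (n = 3). An array is named by its tissue and replicate number, for example CH3. The labels do not say whether the eyes came from separate mice, so the p-values measure the spread between these samples.

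Small heat shock proteins share a conserved alpha crystallin domain, form large oligomers, and bind unfolding proteins without using ATP so that other chaperones can refold them. Alpha A crystallin (Cryaa) and alpha B crystallin (Cryab) are themselves members of this family. Both are major proteins of the lens, where they keep the beta and gamma crystallins in solution. Cryaa is largely a lens protein, whereas Cryab and Hspb1 are also made in muscle, glia and stressed epithelia, and Hspb2, Hspb3, Hspb6, Hspb7 and Hspb8 are best known from muscle.

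The promoter windows of these genes were read from a RefSeq table on GRCm38.p6, which holds 250 bases before and 50 bases after each start. The table had 7 windows for 6 of the 8 genes, with 2 starts for Hspb6. Cryab and Hspb2 were not in it. The heat shock factor family recognises inverted repeats of the letters GAA, so the windows were searched on both strands for GAANNTTC and TTCNNGAA, which can overlap each other in a longer repeat. GAANNTTC was found in 7.86% and TTCNNGAA in 8.51% of the 32817 windows of the table, and 15.1% held at least 1 of them. Among the 6 genes, Hspb1 held GAANNTTC at 2 places, and Hspb3, Hspb8 and the second window of Hspb6 held it at 1 place each. TTCNNGAA was found in none of the 7 windows. A match describes the letters only. Cryaa and Hspb1 are shown because their RNA varied from array to array, and Hspb6 (its first window) and Hspb8 because they differed between the tissues in opposite directions. Matches are in capitals.
Cryaa, chr17:31677681-31677980, plus strand: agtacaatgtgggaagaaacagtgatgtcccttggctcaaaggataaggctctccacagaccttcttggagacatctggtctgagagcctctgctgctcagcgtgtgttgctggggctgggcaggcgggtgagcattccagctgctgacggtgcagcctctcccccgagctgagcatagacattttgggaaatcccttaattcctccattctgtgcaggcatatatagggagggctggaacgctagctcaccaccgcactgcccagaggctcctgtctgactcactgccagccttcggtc
Hspb1, chr5:135887669-135887968, plus strand: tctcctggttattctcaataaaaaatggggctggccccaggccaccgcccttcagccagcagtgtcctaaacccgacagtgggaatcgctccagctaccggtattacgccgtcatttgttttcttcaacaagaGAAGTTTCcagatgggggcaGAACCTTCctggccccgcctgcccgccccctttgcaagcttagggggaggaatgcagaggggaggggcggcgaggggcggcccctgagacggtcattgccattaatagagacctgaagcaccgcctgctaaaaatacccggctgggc
Hspb6, chr7:30552290-30552589, plus strand: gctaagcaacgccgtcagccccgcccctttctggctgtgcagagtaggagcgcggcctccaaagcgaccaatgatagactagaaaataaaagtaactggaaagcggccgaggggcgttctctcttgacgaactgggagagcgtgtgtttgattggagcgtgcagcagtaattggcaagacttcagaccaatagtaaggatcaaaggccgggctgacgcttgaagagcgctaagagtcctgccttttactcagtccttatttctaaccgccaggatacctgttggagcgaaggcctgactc
Hspb8, chr5:116422815-116423114, minus strand: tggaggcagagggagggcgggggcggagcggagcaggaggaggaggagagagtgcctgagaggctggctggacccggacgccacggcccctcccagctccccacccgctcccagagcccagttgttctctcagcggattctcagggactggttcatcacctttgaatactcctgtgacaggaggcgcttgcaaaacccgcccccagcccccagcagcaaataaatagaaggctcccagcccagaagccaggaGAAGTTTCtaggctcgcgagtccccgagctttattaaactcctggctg

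Markers were used to check the labels. All 12 rod markers, such as Gnat1, were higher in the PR than the RPE, and 9 of 10 RPE markers were higher in the RPE than the PR. Against the CH, 6 of 10 RPE markers were higher in the RPE and 1 was higher in the CH, the melanosome protein gene Mlana (RPE minus CH -1.63, saturated on 1 CH array and named after its value was seen). All 8 fibroblast markers were higher in the CH than the RPE. Between 63.1% and 71.9% of spots were well above background in Cy5 on 8 arrays, and 91.8% on RPE2. Lens genes stood apart in another way. The 14 beta and gamma crystallins, the structural proteins of the lens fibre, were well above background on all 9 arrays. Their median log2 ratio was 1.97 on CH1, 2.34 on CH2 and -2.97 on CH3. It was 0.93 on RPE1, 1.12 on RPE2 and 3.85 on RPE3, and 0.97, 0.70 and 2.138 on PR1, PR2 and PR3. The log2 of their summed Cy5 signal ranged from 16.06 to 20.69 in the CH, from 19.58 to 21.82 in the RPE and from 19.56 to 20.54 in the PR. On RPE3, 7 of the 14 were saturated in Cy5, and 1 was on CH2, so the values of the list there are lower limits. CH3 and RPE3 were thus the lowest and the highest array for lens genes. Results that rest on these arrays are given with and without them.

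A probe was called different between tissues at a fold change (FC) above 2.5 with a B-H adjusted p-value below 0.01 in limma, adjusted over all probes. Between the RPE and the CH, 0 of 8 genes were called, where 1.74% of all probes were (0.185% higher in the RPE and 1.55% higher in the CH). At an adjusted p-value below 0.05 with no FC threshold the count was 1 of 8, against 22.4% of all probes, and 2 of 8 had an unadjusted p-value below 0.05. Between the RPE and the PR, 3 of 8 genes were called, where 15.5% of all probes were, and 5 of 8 had an adjusted p-value below 0.05, against 50.1%. Hspb2 and Hspb8 were higher in the RPE and Hspb6 was higher in the PR. Between the CH and the PR, 3 of 8 genes were called, where 18.4% of all probes were, and these were again Hspb2 and Hspb8, higher in the CH, and Hspb6, higher in the PR. At an adjusted p-value below 0.05 there were 4 of 8, against 53.7%. The comparisons with the PR share its arrays and are given side by side only. The median difference of the 8 genes was 0.35 for RPE minus CH, 1.03 for RPE minus PR and 1.02 for CH minus PR on the log2 scale. Over all probes these medians were 0.04, -0.01 and -0.05.

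**Figure D1:**
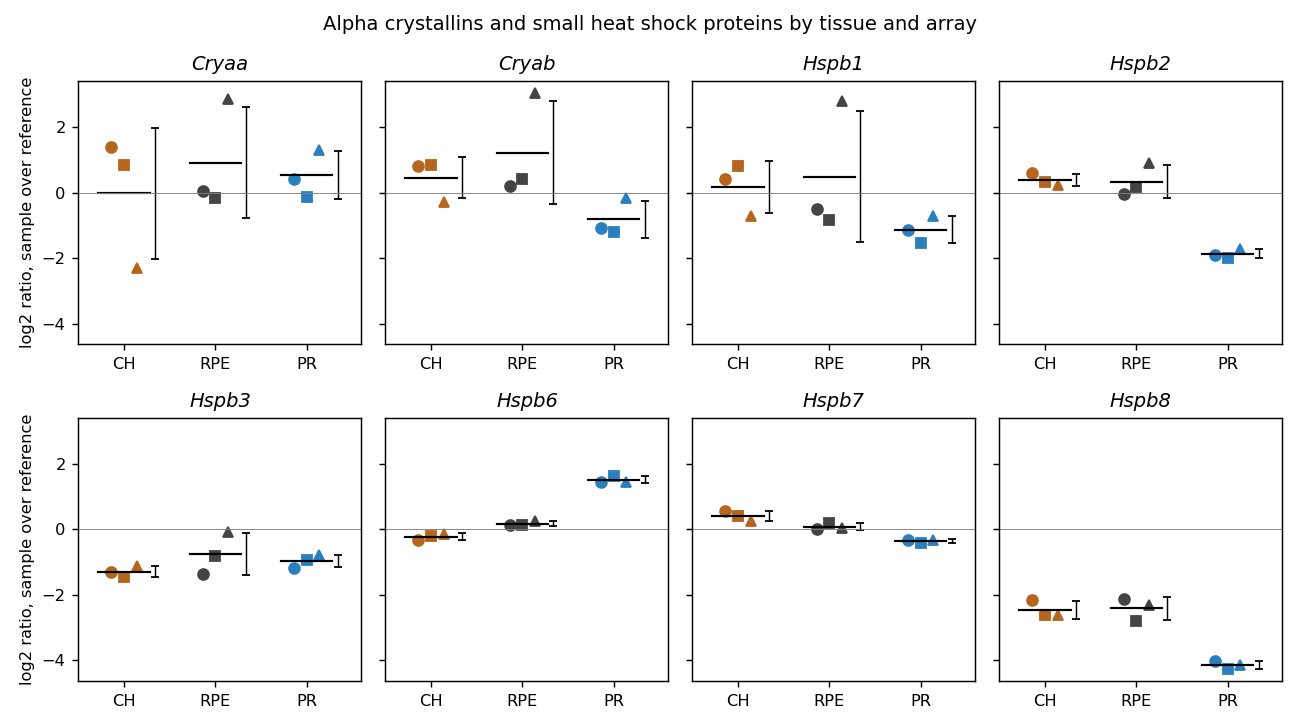
Log2 ratio of sample over reference (y axis) for the reported probe of each of the 8 genes in the CH, RPE and PR. Circles, squares and triangles are replicates 1, 2 and 3, horizontal lines are means and the vertical bars beside them are ± SD (n = 3). Cryaa, Cryab and Hspb1 had their highest value on RPE3. The PR lay apart from the other tissues without overlap for Hspb2, Hspb6 and Hspb8, and also for Hspb7, which was close to background.

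Cryaa differed more between arrays of 1 tissue than between tissue means. Cryaa, the lens alpha A crystallin, was measured by a reported probe at chr17:31818550-31818609 (mm9, plus strand) and by a second probe that starts 3148 bases away. At the reported probe Cryaa gave log2 ratios of 1.40, 0.84 and -2.31 on CH1, CH2 and CH3. On RPE1, RPE2 and RPE3 it gave 0.06, -0.18 and 2.86, and on PR1, PR2 and PR3 0.42, -0.13 and 1.31. All 3 tissues overlapped, and CH3 and RPE3 were the lowest and the highest array. Its level was -0.02 ± 2.00 in the CH, 0.91 ± 1.69 in the RPE and 0.53 ± 0.72 in the PR (SD, n = 3). The Cy5 spot was saturated on CH2 and RPE3, so its values there are lower limits. The second Cryaa probe, which was saturated on no array, gave 1.37, 0.44 and -2.83 in the CH, -0.18, -0.60 and 3.77 in the RPE and -0.17, -0.77 and 0.74 in the PR. It had the same lowest and highest arrays as the reported probe.

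None of the differences in Cryaa exceeded this spread. For RPE minus CH the log2 difference was 0.94 (95% confidence interval -1.35 to 3.22, limma B-H adjusted p-value 0.582). For RPE minus PR it was 0.38 (-1.91 to 2.67, adjusted p-value 0.792), and for CH minus PR -0.56 (-2.84 to 1.73, adjusted p-value 0.686). Each interval extends past 1.32 in both directions, which is an FC of 2.5 on the log2 scale, so a difference of that size was not detectable with these arrays. The direction of RPE minus CH turned without CH3 (-0.21) and without RPE3 (-0.04). With both left out it was -1.18 (adjusted p-value 0.0923). Within slides, the difference between RPE and CH was 1.91 on the slide that held CH1, CH3, RPE1 and RPE3 and -1.02 on the slide that held CH2, RPE2 and PR2. CH minus PR turned to 0.59 without CH3, and RPE minus PR to -0.59 without RPE3.

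**Figure D2:**
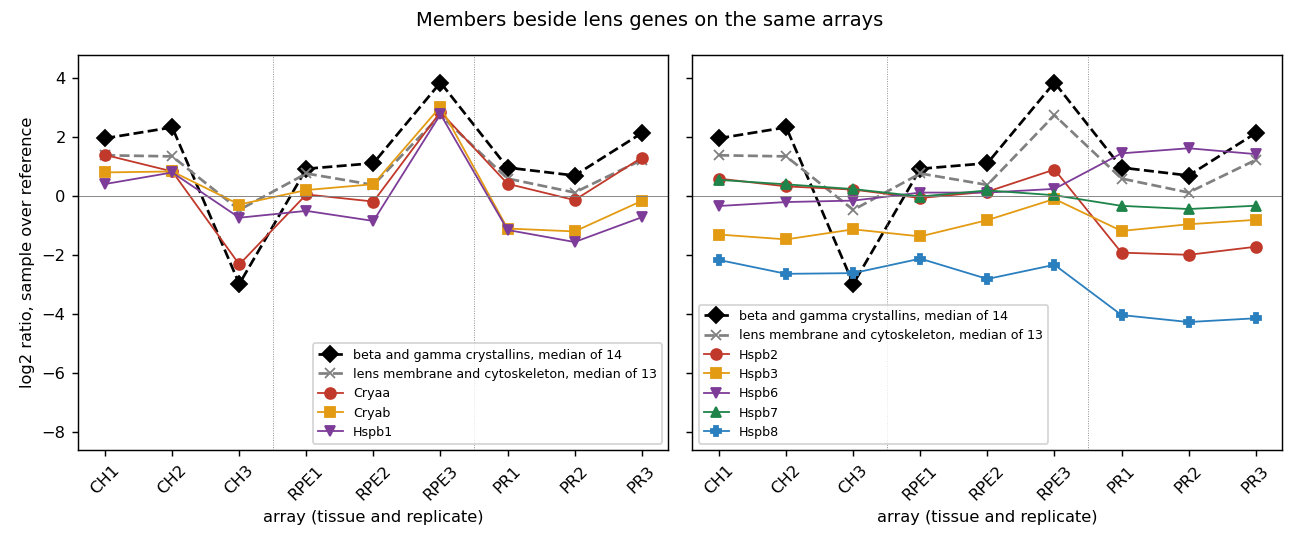
Log2 ratio of sample over reference (y axis) on each of the 9 arrays (x axis) for the 8 genes, beside the median of the 14 beta and gamma crystallins and of 13 lens membrane and cytoskeleton genes (dashed). Cryaa, Cryab and Hspb1 (left) were all highest on RPE3 as the lens genes were, and Hspb6, Hspb7 and Hspb8 (right) lay within 0.14 of the mean of RPE1 and RPE2 there.

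Cryaa varied with the other crystallins. Over the 9 arrays its log2 ratio had a Pearson correlation of 0.97 with the median of the beta and gamma crystallins, and 0.96 after the tissue means had been removed. The 9 points share their arrays and reference, and CH3 and RPE3 lie far from the others, so these correlations are descriptions. Among 11258 probes with a clear signal and a range of tissue means above 1, the 3 genes with the most similar pattern to Cryaa were Cryba1 (0.99), Crygs (0.99) and Cryba2 (0.99), a beta, a gamma and a further beta crystallin. Cryba1 gave 1.26, 1.16 and -3.56 in the CH, 0.21, -0.37 and 4.25 in the RPE and 0.37, -0.56 and 1.63 in the PR. Like Cryaa, it was lowest on CH3 and highest on RPE3. It was saturated on 1 RPE array, which makes its value there a lower limit. CH3 lay 3.43 below the mean of CH1 and CH2 for Cryaa and RPE3 lay 2.91 above the mean of RPE1 and RPE2, where the median absolute gap over all probes was 0.16 and 0.13. In 27 of 39188 probes, from 22 genes, the gap exceeded 2 in the same directions on both arrays. They included both Cryaa probes, 12 of the 14 beta and gamma crystallins and 4 of 13 lens membrane and cytoskeleton genes. CH3 and RPE3 had been singled out by the beta and gamma crystallin medians, so the count for that list is a description only.

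The exception among the gamma crystallins was Crygn. It gave 0.14, -0.29 and -0.05 in the CH, 0.86, 0.97 and 1.52 in the RPE and -1.51, -1.79 and -1.36 in the PR. Its tissues did not overlap, and its difference was 2.67 for RPE minus PR (adjusted p-value 1.66e-06) and 1.48 for CH minus PR (adjusted p-value 8.89e-05). Crygn was the 1 gene of this list that was called. The other 13 were not called in any comparison, and the median SD within tissues over the list was 1.99, against 0.16 over all probes. Of the lens membrane and cytoskeleton genes, Tdrd7 (RPE minus PR -1.99, adjusted p-value 9.33e-06) was called, and had a correlation with Cryaa of 0.08. These lists were chosen with earlier results of these data known.

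**Figure D3:**
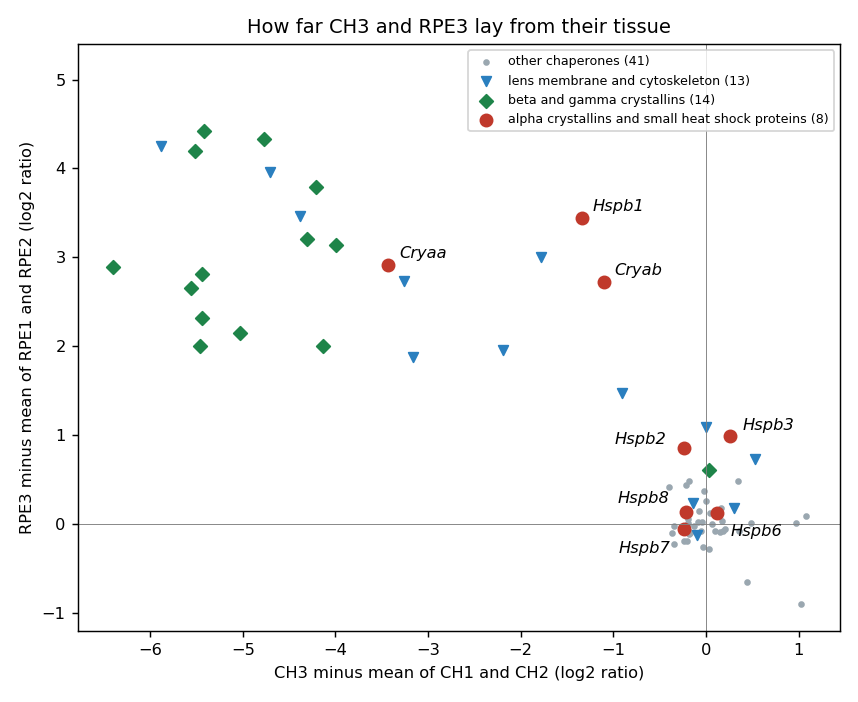
Distance of CH3 from the mean of CH1 and CH2 (x axis) and of RPE3 from the mean of RPE1 and RPE2 (y axis), both in log2 ratio, with 1 point per gene. Cryaa lay among the beta and gamma crystallins, Cryab and Hspb1 were high on RPE3 and less far below on CH3, and Hspb6, Hspb7 and Hspb8 lay near 0, as did the median of the other chaperones (0.08 for CH3 and -0.01 for RPE3).

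Cryab, the alpha B crystallin, is encoded on chromosome 9 next to Hspb2. Its reported probe at chr9:50564566-50564625 (mm9, plus strand) gave log2 ratios of 0.81, 0.84 and -0.28 on CH1, CH2 and CH3. The RPE arrays gave 0.21, 0.41 and 3.04, and the PR arrays -1.09, -1.19 and -0.16. RPE3 was the highest array by far and was saturated in Cy5, and the RPE and the PR did not overlap. The level was 0.46 ± 0.64 in the CH, 1.22 ± 1.58 in the RPE and -0.81 ± 0.57 in the PR (SD, n = 3). RPE minus PR was 2.03 (95% confidence interval 0.52 to 3.55), with an adjusted p-value of 0.0300, which is above the threshold of 0.01. RPE minus CH was 0.76 (-0.75 to 2.28, adjusted p-value 0.488) and CH minus PR 1.27 (-0.25 to 2.79, adjusted p-value 0.145).

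The probes of Cryab gave different sizes for these differences. The second probe starts 3108 bases away, at chr9:50561458-50561517. It gave 0.24, -0.16 and -1.02 in the CH, -0.01, -0.41 and 1.61 in the RPE and -0.56, -0.44 and -0.01 in the PR, and all 3 tissues overlapped. At this probe RPE minus PR was 0.73 (adjusted p-value 0.246) and CH minus PR 0.03 (adjusted p-value 0.970). Both probes had their highest value on RPE3. Without RPE3, RPE minus CH at the reported probe turned to -0.15 and RPE minus PR was 1.12. With both CH3 and RPE3 left out, an alternative chosen after seeing the data, CH minus PR was 1.64 with an adjusted p-value of 0.00155. This passed both thresholds, and RPE minus CH was -0.51 (adjusted p-value 0.322). The CH arrays that remained, CH1 and CH2, had beta and gamma crystallin medians of 1.97 and 2.34, against 0.97, 0.70 and 2.138 in the PR. The part of lens RNA in this difference was not tested. At the second probe CH2 (-0.16) lay below PR3 (-0.01).

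Hspb1, also known as Hsp25 in the mouse, is a stress-induced chaperone that binds actin filaments. Its probe (chr5:136365366-136365425, mm9, plus strand) gave 0.42, 0.81 and -0.73 in the CH, -0.49, -0.83 and 2.78 in the RPE and -1.14, -1.55 and -0.71 in the PR. RPE1 and RPE2 lay below CH1 and CH2 while RPE3 lay above every other array. The level was 0.17 ± 0.80 in the CH, 0.48 ± 2.00 in the RPE and -1.13 ± 0.42 in the PR (SD, n = 3). RPE minus CH was 0.32 (95% confidence interval -1.53 to 2.17, adjusted p-value 0.835), RPE minus PR 1.62 (-0.23 to 3.47, adjusted p-value 0.135) and CH minus PR 1.30 (-0.55 to 3.15, adjusted p-value 0.219). Without RPE3, RPE minus CH was -0.83 and RPE minus PR was 0.47. With both CH3 and RPE3 left out, RPE minus CH was -1.28 (adjusted p-value 0.0155), not past the p-value threshold. CH minus PR was then 1.75 (adjusted p-value 0.000495), past both thresholds. CH1 and CH2, which remained, had beta and gamma crystallin medians of 1.97 and 2.34. The medians were 0.93 and 1.12 on RPE1 and RPE2 and 0.97, 0.70 and 2.138 in the PR, and the part of lens RNA was not tested. On the slide with CH2, RPE2 and PR2, RPE minus CH was -1.64, whereas on the slide with the other RPE arrays it was 1.30.

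Cryab and Hspb1 varied together more closely than either did with Cryaa. Over the 9 arrays the correlation of Cryab with Hspb1 was 0.96, and Hspb1 was the gene of the 11258 probes whose pattern was most like that of Cryab. The next most similar genes were Dtna (0.95), which encodes a dystrobrevin, and Nid1 (0.95), which encodes the basement membrane protein nidogen. For Hspb1 they were S100a4 (0.97), Gpr160 (0.97) and Dtna (0.96). The correlation of Cryaa was 0.65 with Cryab and 0.70 with Hspb1. These became 0.88 and 0.87 once the tissue means had been removed, against 0.97 for Cryab with Hspb1. After removal of the tissue means, the correlation with the lens membrane and cytoskeleton median was 0.98 for Cryaa, 0.94 for Cryab and 0.94 for Hspb1. With the beta and gamma crystallin median it was 0.96 for Cryaa, but 0.79 for Cryab and 0.77 for Hspb1. Before that removal, Cryab and Hspb1 had correlations of 0.60 and 0.62 with the beta and gamma crystallin median. After it, the second Cryab probe gave 0.96 and 0.83 with these medians, and Hspb2 gave 0.85 and 0.68. RPE3 lay 2.73 above the other RPE arrays for Cryab and 3.44 above them for Hspb1. CH3 lay 1.10 and 1.34 below the other CH arrays, where the gap of Cryaa was 3.43. When the median of the beta and gamma crystallins on each array was added to the fit as a covariate, RPE minus CH was -0.22 for Cryaa, 0.14 for Cryab and -0.42 for Hspb1 (adjusted p-values 0.699, 0.878 and 0.684). RPE minus PR in that fit was 1.75 for Cryab (adjusted p-value 0.01003, just above the threshold) and 1.28 for Hspb1 (adjusted p-value 0.0915). The covariate is a lower limit on RPE3, where 7 of the 14 were saturated. The part of lens RNA in these values was not tested further.

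The reference channel moved on the same array. The same reference RNA was hybridised on all arrays, and the raw Cy3 signal of the reported Cryaa probe was 28025 on RPE3 and between 51518 and 115393 on the others. The Cy5 signal of this spot on RPE3 was 641785, the highest of the 9. Hspb1 had a Cy3 signal of 22773 on RPE3, the lowest of its 9 arrays, beside a Cy5 signal of 464877, and Cryab one of 24724. The SD of the log2 Cy3 signal over the arrays was 0.57 for Cryaa, 0.49 for Cryab and 0.38 for Hspb1, against a median of 0.21 over all probes. The second probes did not show the low reference on RPE3, where Cryaa had a Cy3 signal of 5457 and Cryab one of 41538, both within the range of the other arrays. With the Cy5 channel alone, without the reference, RPE minus CH was 0.56 for Cryaa, 0.41 for Cryab and -0.01 for Hspb1.

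**Figure D4:**
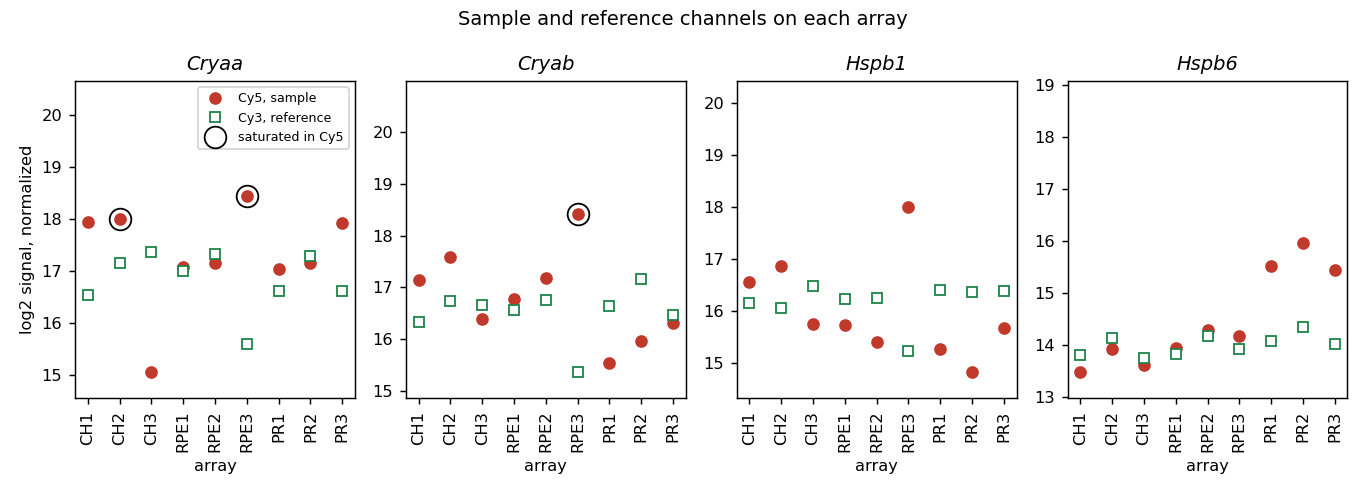
Normalized log2 signal (y axis) of the sample in Cy5 (filled circles) and the reference in Cy3 (open squares) at the reported probe of Cryaa, Cryab, Hspb1 and Hspb6 on each array (x axis). All panels span the same number of log2 units and large rings mark saturated Cy5 spots. On RPE3 the Cy5 signal of Cryaa, Cryab and Hspb1 was at its highest and the Cy3 signal at its lowest, and Hspb6 showed neither.

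Hspb2 was lower in the PR than in both other tissues. It encodes a partner of myotonic dystrophy kinase, and its probe (chr9:50559211-50559270, mm9, minus strand) ends 2187 bases before the nearer probe of Cryab, which lies on the plus strand. Hspb2 gave log2 ratios of 0.60, 0.34 and 0.23 in the CH, -0.06, 0.16 and 0.91 in the RPE and -1.91, -1.98 and -1.71 in the PR. The CH and the RPE overlapped and every PR array lay below them. The level was 0.39 ± 0.19 in the CH, 0.34 ± 0.51 in the RPE and -1.87 ± 0.14 in the PR (SD, n = 3). RPE minus PR was 2.20 ± 0.22 (SE, adjusted p-value 1.92e-05, FC 4.6) and CH minus PR 2.25 ± 0.22 (SE, adjusted p-value 1.36e-05, FC 4.77). RPE minus CH was -0.05 (95% confidence interval -0.55 to 0.45, adjusted p-value 0.905), an interval that lies within an FC of 2.5 in either direction. On the slide that held 1 array of each tissue, RPE minus PR was 2.139 and CH minus PR 2.32.

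RPE3 was the highest RPE array for Hspb2 as well, 0.86 above the mean of the others, while CH3 lay 0.24 below CH1 and CH2. Its correlation with Cryab after removal of the tissue means was 0.95. Leaving out both arrays gave 1.92 for RPE minus PR and 2.33 for CH minus PR, with adjusted p-values of 1.42e-05 and 3.57e-06. In bulk samples fewer cells of a type and less RNA per cell cannot be told apart. Smooth muscle and pericyte markers, a group of 12 genes, were also lower in the PR. 10 of them were called higher in the RPE than the PR and 12 of 12 higher in the CH than the PR, and their median log2 ratio was 0.90 to 1.26 in the CH, 0.10 to 0.18 in the RPE and -2.24 to -2.08 in the PR. The log2 of their summed Cy5 signal was 18.26 to 18.91 in the CH, 17.53 to 17.99 in the RPE and 14.87 to 15.03 in the PR, and 10 of the 12 were still well above background on each PR array. Skeletal muscle markers had a median between -2.82 and -2.13 on every array. Markers of other vessel and stromal cells were lower in the PR as well. Of 9 endothelial markers, 8 were higher in the RPE than the PR and 8 in the CH than the PR, with a median log2 ratio of 1.24 to 1.84 in the CH, 1.36 to 1.42 in the RPE and -1.94 to -1.55 in the PR. Their summed Cy5 signal was 17.48 to 17.96 in the CH, 17.50 to 17.78 in the RPE and 14.15 to 14.51 in the PR on the log2 scale. Of 8 fibroblast markers, 7 were higher in the RPE than the PR and 8 in the CH than the PR, with a median of 1.04 to 1.42 in the CH, -1.36 to -0.87 in the RPE and -4.62 to -4.08 in the PR. The part of muscle, endothelial or fibroblast cells in the values of Hspb2 was not tested.

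Hspb8 was also lowest in the PR. It acts with the co-chaperone Bag3 in the selective autophagy of misfolded proteins. At chr5:116859063-116859122 (mm9, minus strand) it gave -2.16, -2.63 and -2.60 in the CH, -2.11, -2.80 and -2.32 in the RPE and -4.02, -4.26 and -4.13 in the PR. Every tissue lay below the reference, and the PR lay below the others without overlap. The level was -2.46 ± 0.26 in the CH, -2.41 ± 0.35 in the RPE and -4.14 ± 0.12 in the PR (SD, n = 3). RPE minus PR was 1.73 ± 0.19 (SE, adjusted p-value 3.14e-05, FC 3.31) and CH minus PR 1.68 ± 0.19 (SE, adjusted p-value 3.26e-05, FC 3.19). RPE minus CH was 0.05 (95% confidence interval -0.37 to 0.47, adjusted p-value 0.887). CH3 and RPE3 lay 0.21 below and 0.14 above the other arrays of their tissue. When the arrays were also scaled to an equal spread of their log ratios, RPE minus PR was 0.30 (adjusted p-value 0.150) and CH minus PR 0.30 (adjusted p-value 0.136), and both calls were lost.

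Hspb6 showed the opposite direction and was highest in the PR. The protein, also called Hsp20, is a target of cyclic nucleotide-dependent kinases in smooth muscle. Its probe (chr7:31340398-31340457, mm9, plus strand) gave -0.33, -0.19 and -0.15 in the CH, 0.13, 0.13 and 0.25 in the RPE and 1.46, 1.63 and 1.43 in the PR. No tissue overlapped with another, and the order was CH, RPE, PR. The level was -0.22 ± 0.09 in the CH, 0.17 ± 0.07 in the RPE and 1.504 ± 0.108 in the PR (SD, n = 3). RPE minus PR was -1.34 ± 0.10 (SE, adjusted p-value 1.77e-06, FC 2.52) and CH minus PR -1.73 ± 0.10 (SE, adjusted p-value 2.33e-07, FC 3.31). RPE minus CH was 0.39 ± 0.10 (SE, adjusted p-value 0.0171, FC 1.31), which passed neither threshold. The FC of RPE against PR was just above 2.5, and the call was lost without RPE1 (-1.32), without RPE2 (-1.32), without PR2 (-1.27) and with arrays scaled to an equal spread (-0.93).

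Hspb6 also varied least. The SD of its log2 ratio within tissues was 0.09, below the median of 0.16 over all probes and at percentile 13.8 of 38847 probes. For comparison this SD was 1.57 for Cryaa, 1.26 for Hspb1 and 1.04 for Cryab, at percentiles 99.9, 99.9 and 99.8, and 0.32 for Hspb2, 0.40 for Hspb3, 0.26 for Hspb8 and 0.12 for Hspb7. The genes with the pattern most like that of Hspb6 were Zfp787, Kdm5b and Ccdc126 (correlation 1.00 each over the 9 arrays). CH3 and RPE3 lay 0.12 and 0.13 from the other arrays of their tissue.

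**Figure D5:**
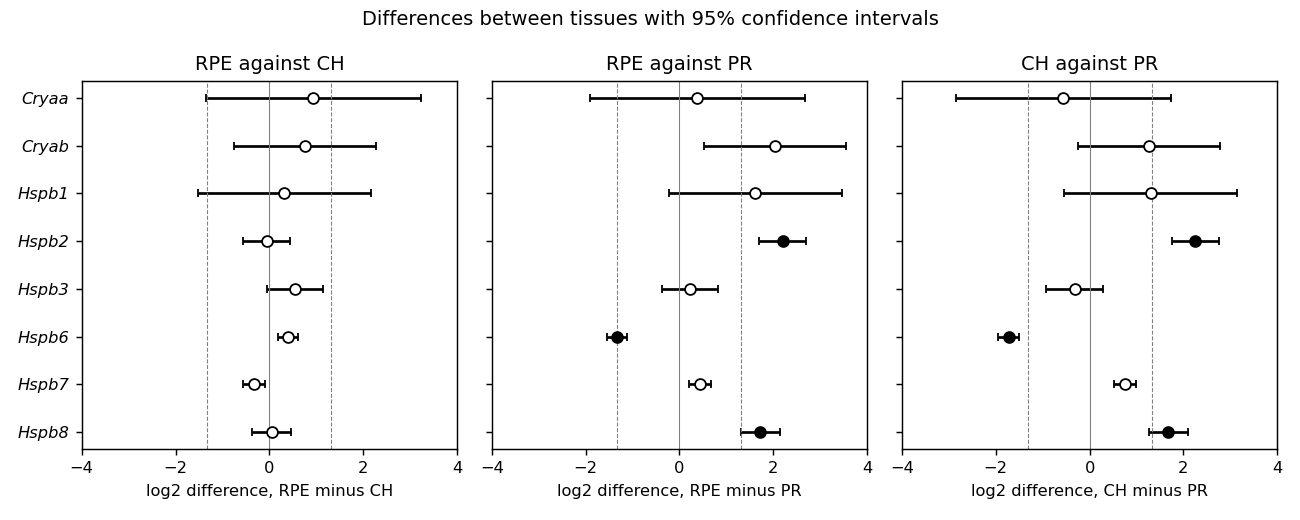
Log2 differences (x axis) of the 8 genes (y axis) for RPE minus CH, RPE minus PR and CH minus PR, with 95% confidence intervals of the limma fit over 9 arrays. Filled points were called, and dashed lines mark an FC of 2.5. The called genes were Hspb2, Hspb6 and Hspb8, in both comparisons with the PR, and the intervals of Cryaa, Cryab and Hspb1 were the widest.

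Hspb3 and Hspb7 were close to background. A probe that was not well above background on any array of a tissue has only a limit there, and its FC is then given as at least so many fold, from mean log2 Cy5 signals after loess and Aquantile normalization with the dim arrays set no lower than the lowest signal that was well above background. Hspb7, a cardiac and skeletal muscle protein, was measured by 10 spots of its probe (chr4:140980355-140980414, mm9, plus strand). It gave 0.56, 0.41 and 0.24 in the CH, -0.01, 0.20 and 0.04 in the RPE and -0.32, -0.43 and -0.32 in the PR. It was well above background on 2 CH arrays, 0 PR arrays and 1 RPE array, which was RPE2, where 91.8% of spots were well above background. From its Cy5 signals, Hspb7 had an FC of at least 1.43, higher in the CH than the PR. In the limma fit of the log ratios, CH minus PR was 0.76 (adjusted p-value 0.000164), below the FC threshold. RPE minus PR was 0.43 (adjusted p-value 0.00656), also below it, and no limit of the FC is given because the log2 Cy5 signal was 8.74 on RPE2 against 7.72 and 7.76 on the other RPE arrays, where the probe was not well above background. RPE minus CH was -0.33 (95% confidence interval -0.56 to -0.09, adjusted p-value 0.0546). With the ratio of the scanner software, CH minus PR was 1.71 (adjusted p-value 7.59e-05) and passed both thresholds.

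Hspb3, whose human counterpart is linked to a motor neuropathy, gave -1.30, -1.46 and -1.12 in the CH, -1.36, -0.81 and -0.09 in the RPE and -1.17, -0.95 and -0.80 in the PR at chr13:114453236-114453295 (mm9, minus strand). It was not well above background on any CH array and was so on 2 RPE and 2 PR arrays. The tissues overlapped in each comparison. RPE minus CH was 0.54 (95% confidence interval -0.06 to 1.14, adjusted p-value 0.194) and CH minus PR -0.32 (-0.92 to 0.28, adjusted p-value 0.354). No limit of the FC is given for Hspb3, because the tissues overlapped and each interval holds both signs. RPE1 and PR1 were also not well above background. RPE minus PR was 0.22 (95% confidence interval -0.38 to 0.82, adjusted p-value 0.536), and -0.11 without RPE3.

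Across the family, arrays of the compared tissues did not overlap for 2 of 8 genes between RPE and CH (Hspb6 and Hspb7), against 38.6% of all probes. They did not overlap for 5 of 8 between RPE and PR (Cryab, Hspb2, Hspb6, Hspb7 and Hspb8), against 58.6%, and for 4 of 8 between CH and PR (Hspb2, Hspb6, Hspb7 and Hspb8), against 62.1%. With only 8 genes, no difference from the share of all probes is read from these counts. At the second probe of Cryab the RPE and the PR overlapped.

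The relatives of the family on the array were few. Hspb9, Hspb11, Odf1 and the Hspb1-associated protein Hspbap1 were called in none of the comparisons. Odf1 was well above background on 0 CH, 1 RPE and 0 PR arrays, and Hspbap1 on 1 array of each tissue. Signals near background limit both, as for Hspb3 and Hspb7. Hspb11, an intraflagellar transport subunit despite its name, had the lowest p-value of these relatives. It gave -0.35, -0.10 and -0.03 in the CH and 0.26, 0.40 and 0.63 in the RPE, a difference of 0.59 ± 0.12 (SE, adjusted p-value 0.00812) that was below the FC threshold.

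The larger chaperones and their co-chaperones were represented by 41 of 42 listed genes. Their median gap was 0.08 for CH3 and -0.01 for RPE3. Single genes differed from this median, and Hsp90aa1 gave 0.36, 0.40 and 1.46, Hspa5 0.06, 0.83 and 1.47 and Hspa8 1.10, 0.85 and 1.95 on CH1, CH2 and CH3. These were picked after their values were seen, and among the CH arrays each was highest on CH3. The median log2 ratio of the list was -0.03 to 0.06 in the CH, 0.13 to 0.33 in the RPE and -0.16 to 0.05 in the PR. Between RPE and CH, 0 of 41 were called, against 1.74% of all probes. Between RPE and PR, 5 were higher in the RPE and 1 in the PR, against 10.3% and 5.17% of all probes, and the median difference was 0.28. Between CH and PR, 6 were higher in the CH and 4 in the PR, against 12% and 6.33%, and the median difference was 0.09. Bag3, the partner of Hspb8, was 3.52 higher in the RPE than the PR (adjusted p-value 2.98e-08) and 4.01 higher in the CH than the PR (adjusted p-value 9.40e-09). Serpinh1, the collagen chaperone Hsp47, was 4.83 higher in the RPE than the PR (adjusted p-value 4.87e-09), Hspa12b, a chaperone of endothelial cells, 2.5 higher (adjusted p-value 1.83e-07) and the constitutive Hsp70 gene Hspa8 1.96 higher (adjusted p-value 0.000224). Hspa8 was saturated on 1 RPE array, so its difference is a lower limit. In the other direction Hsp90aa1, the inducible Hsp90, was lower in the CH than the PR, with a difference of -1.97 (adjusted p-value 7.98e-05).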

How the data were processed

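The authors hybridised 9 dual-colour Agilent arrays, 3 per tissue, and deposited the Feature Extraction 9.5.3.1 output and a series table. The deposited mean signals and median local backgrounds are intensities as scanned and were the starting values. The deposited ratio that the scanner software computes from its processed signals is on a log10 scale. In the series table of the authors the values are log2 Cy5 signals, whose normalization steps are not given in the sources used here, and which correlated with the log2 Cy5 signal at 0.985 to 0.999 per array. Log10 ratios and the series table were used as alternatives only. The study's methods give a slightly younger age than the labels.

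Background was corrected with normexp (offset 50), log2(Cy5/Cy3) was normalized by loess within arrays, outlier spots were dropped and repeated spots of a probe averaged. A linear model with a mean per tissue was fitted to 9 arrays with limma 3.58.1 in R 4.3.3, with Benjamini-Hochberg adjustment over 39429 probes. The reported probe of a gene is the brightest in Cy5, and the genes with the most similar pattern were the 3 with the highest Pearson correlation. All 8 genes are named, as are the beta and gamma crystallins that results turn on and in each comparison at most 4 genes of any other list, by the largest absolute difference, unless marked as named after their values were seen. Some genes of these lists are not reported here. The members and lists were chosen with earlier results of these data known. Probe positions are those of the files (mm9), and the annotation of exons at these positions was not analysed here. Slides were read from the file headers. The number of arrays limits the precision.

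In a test on simulated data with each probe's own spread, 90 of 100 probes changed by a log2 difference of 2 in the RPE, and 100 of 100 changed by 3, were called against the CH, of 38847 probes. The changed probes were drawn at random from all probes, whose median SD within tissues was 0.16. Their share therefore does not apply to Cryaa, Cryab and Hspb1, where this SD was 1.57, 1.04 and 1.26. Alternatives covered background, normalization, the reference channel, the series table, arrays fitted, replicate and slide blocks, dim and marked spots, probes per gene, the variance model, thresholds and each array left out. Figures were drawn with matplotlib 3.10.9 in Python 3.11.15.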

Additional observations from a re-analysis of the deposited data

How the results depend on the processing

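The calls of the 8 genes were recomputed under 15 other settings, with each of the 9 arrays left out in turn, and under 2 settings chosen after seeing the data. Between RPE and CH, 0 genes were called in all of them except with an adjusted p-value below 0.05 and no FC threshold, where 1 was (Hspb6). Between RPE and PR the count of 3 became 1 (Hspb2) when log ratios were scaled between arrays, 5 without the FC threshold and 4 with an FC above 2 and an adjusted p-value below 0.05 (Cryab added), and was 2 to 3 with an array left out. Between CH and PR it stayed at 3 with any array left out, and was 4 with an adjusted p-value below 0.05 and no FC threshold. It was 5 (Cryab and Hspb1 added) when CH3 and RPE3 were both left out, which was chosen after seeing the data. The genes called between CH and PR also changed with the ratio of the scanner software, where Hspb7 passed both thresholds. With arrays scaled, Hspb8 no longer passed in either comparison with the PR (0.30 in both) and Hspb6 was -0.93 for RPE minus PR, and the cause was not tested.

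Several small differences changed direction. For RPE minus CH, Hspb1 was -0.023 with median centring, -0.013 with Cy5 alone and -0.87 with the series table, Hspb8 was -0.23 with median centring and -0.0042 with arrays scaled, and Cryab was -0.13 with the series table. That table holds no value for Cryaa on CH2, RPE1, RPE3 and PR3 or for Cryab and Hspb1 on RPE3, so its fit dropped those arrays. Hspb3 was -0.18 for RPE minus PR with arrays scaled. With CH3 and RPE3 both left out, RPE minus CH was -1.18 for Cryaa, -0.51 for Cryab, -1.28 for Hspb1 and -0.064 for Hspb8, RPE minus PR was -0.59 for Cryaa and -0.11 for Hspb3, and CH minus PR was 0.59 for Cryaa. With the lens crystallin median as a covariate, also chosen after seeing the data, RPE minus CH was -0.22 for Cryaa, -0.42 for Hspb1 and -0.0032 for Hspb8, RPE minus PR was -0.15 and CH minus PR 0.068 for Cryaa. With single arrays left out, RPE minus CH ranged from -0.21 to 1.65 for Cryaa, from -0.15 to 1.27 for Cryab, from -0.83 to 0.98 for Hspb1, from -0.34 to 0.14 for Hspb2 and from -0.10 to 0.25 for Hspb8. RPE minus PR ranged from -0.59 to 0.93 for Cryaa and from -0.11 to 0.52 for Hspb3, and CH minus PR from -1.27 to 0.59 for Cryaa.

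With the replicate number as a block, 0, 3 and 3 genes were called in the 3 comparisons, and no call changed. After removal of the tissue means, CH2, RPE2 and PR2, which shared a slide, correlated at 0.16 to 0.29, while the other same-numbered pairs ranged from -0.08 to 0.29, so not every pair was above 0.1 and the number was not taken to pair the samples. With the slide as a block the counts were also 0, 3 and 3. Leaving out dim probes removed Hspb3 and Hspb7 from the test. Over all probes, 685 were called between RPE and CH, 1183 with median centring, 1199 with arrays scaled and 405 with the series table. With the software's own log ratio, the calls that were higher in the RPE fell from 66.6% to 54.3% of those between RPE and PR, and those higher in the CH from 65.6% to 53.2% of those between CH and PR. Signals near background limit Hspb3 and Hspb7, and saturation limits Cryaa on CH2 and RPE3 and Cryab on RPE3.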
